A study of Oryza sativa with 4 samples.

Results

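The 4 genes described here are the rice members of the AGAMOUS branch of MADS-box transcription factors. OsMADS3 (LOC_Os01g10504) and OsMADS58 (LOC_Os05g11414) are the C-class genes, and OsMADS13 (LOC_Os12g10540) and OsMADS21 (LOC_Os01g66290) are the D-class genes. They were taken by locus ID from a table of 55986 genes, and all 4 have a row in it. In the rice flower the C class specifies stamens, contributes to carpels and ends the activity of the floral meristem, and the D class specifies ovules inside the carpel. These proteins act in complexes with SEPALLATA-like (E-class) and AGL6-like partners, and B-class partners join them in stamens. The palea, the inner of the bracts that enclose the rice flower, lies outside the whorls in which these genes are known to act.

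Paleas of 4 genotypes were profiled by RNA sequencing of mRNA-enriched libraries, with plants grown in a paddy field. The libraries are labelled Osmads6 (a Tos17 retrotransposon insertion line, Nipponbare), Osmads32 (a T-DNA insertion line, AF36), rep1 (a deletion line, japonica) and wild type (japonica), so genotype and background cannot be told apart. The mutated genes are OsMADS6 and OsMADS32, a pair of MADS-box genes that pattern the flower, and REP1, a TCP gene that shapes the palea. Each genotype is a single GEO sample with a pair of columns in the table, and the columns are handled as 2 runs of that sample. The sources used here do not give the number of plants, the stage of the flower or the origin of the runs. With n = 1 per genotype no test between genotypes was made, and no difference below has a replicate check.

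Values are FPKM (fragment counts divided by transcript length and by the depth of the run), a scale on which levels of different genes can be set side by side. Whole reads were recovered from the FPKM values, with totals of 37201858 to 55110869 reads per run. Hull markers were present in every library: all 5 of OsMADS1, OsMADS5, OsMADS14, OsMADS15 and OsMADS34 were above 1 FPKM. The targeted gene went against a label. OsMADS6 (LOC_Os02g45770) stood at 127 FPKM in the library labelled Osmads6, 262 FPKM in that labelled Osmads32, 842 FPKM in that labelled rep1 and 13.5 FPKM in that labelled wild type. OsMADS32 (LOC_Os01g52680) was not lower in its own labelled mutant, at 8.32 FPKM against 7.19 FPKM in wild type, and REP1 (LOC_Os09g24480) was near the detection limit in all libraries. REP1 had its fewest reads in its own labelled mutant, with 2 and 0 in the rep1 runs, 4 and 6 in the Osmads6 runs and 2 and 4 in the Osmads32 runs, against 4 and 11 in the wild type runs, too few to check that label. An insertion need not lower a transcript, and where these reads lie relative to the lesions is not known. Libraries are therefore named by their labels, and every direction rests on those labels; ratios between mutants are given beside those that use the libraries labelled Osmads6 and wild type.

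The C-class gene OsMADS3, which is needed for stamen identity, was the member detected in all 8 runs at above 1 FPKM. It stood at 1.40 and 1.03 FPKM in the runs labelled Osmads6, from 72 and 58 reads. It reached 7.81 and 6.79 FPKM in the runs labelled Osmads32 and 14.4 and 15.1 FPKM in those labelled rep1, against 4.15 and 5.49 FPKM in those labelled wild type. The runs of any pair of genotypes did not overlap, so the order from high to low was rep1, Osmads32, wild type and Osmads6. In the rep1 runs OsMADS3 stood above 78.7% and 78.9% of detected genes, and in the Osmads6 runs above 40.8% and 38.5%.

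OsMADS58, the second C-class gene, which acts mainly in carpel development and floral meristem determinacy, had another order. It was highest in the library labelled Osmads32, at 6.0 and 6.11 FPKM from 161 reads in each run. It stood at 0.35 and 0.16 FPKM in the runs labelled Osmads6 and at 1.73 and 1.13 FPKM in those labelled rep1, against 0.421 and 0.268 FPKM in those labelled wild type. The Osmads32, rep1 and wild type runs were apart, while the Osmads6 and wild type runs overlapped. The Osmads6 values rest on 8 and 4 reads and the wild type values on 14 and 8 reads, so a difference between these libraries was not detectable at this depth.

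OsMADS13, the D-class gene of ovule identity, was the most abundant of the 4 genes in the library labelled Osmads32, at 17.4 and 19.6 FPKM from 499 and 551 reads. In the runs labelled Osmads6 it had 3 and 0 reads, or 0.123 and 0 FPKM, where 3 reads in the second run would correspond to 0.112 FPKM. It stood at 10.2 and 11.5 FPKM in the runs labelled rep1, against 0.423 and 0.691 FPKM in those labelled wild type. No runs of different genotypes overlapped, and the order was Osmads32, rep1, wild type and Osmads6. OsMADS13 stood above 79.8% and 81.5% of detected genes in the Osmads32 runs and above 73.0% and 74.3% in the rep1 runs, but above only 32.4% and 35.3% in the wild type runs.

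OsMADS21, a D-lineage gene known from developing carpels and seeds, was the lowest of the 4 in every library by mean FPKM. It was at 2.04 and 2.41 FPKM in the runs labelled Osmads32, from 124 and 144 reads. The runs labelled Osmads6 held 1 and 3 reads, against 9 and 4 reads in those labelled wild type, which is 0.0193 and 0.0528 FPKM against 0.119 and 0.0592 FPKM. In the library labelled rep1 the runs disagreed: run 1 is listed at 0, where 3 reads would correspond to 0.0545 FPKM, and run 2 had 26 reads, or 0.499 FPKM. Exact Poisson intervals for those runs, which cover counting error only, reach up to 0.0670 FPKM in run 1 and down to 0.326 FPKM in run 2. In that library 30 genes had at least 20 reads in run 2 and 0 in run 1, and 31 genes had the reverse. The rep1 level of OsMADS21 is therefore given per run, and its place relative to the wild type library is not settled by these runs.

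**Figure D1:**
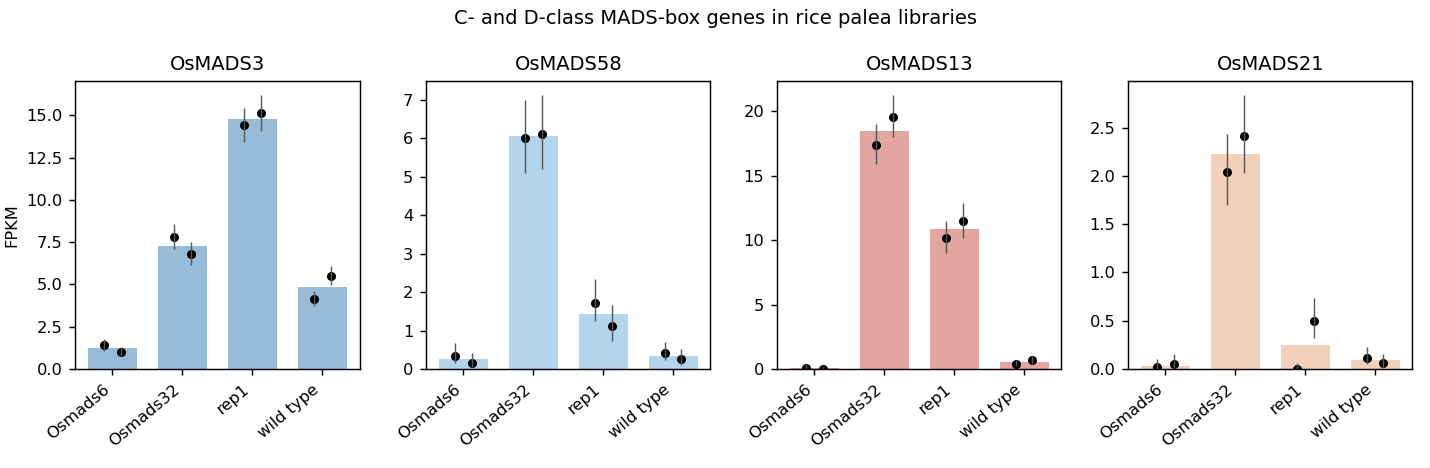
FPKM of each C- and D-class gene in the 4 labelled libraries; bars are the mean of 2 runs, points are the runs, and lines are exact 95% Poisson intervals on the reads of a run, which cover counting error only. OsMADS3 is highest in rep1, at 14.4 and 15.1 FPKM, while OsMADS58, OsMADS13 and OsMADS21 are highest in Osmads32; each panel has its own linear axis from 0.

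All 4 genes had their lowest mean in the library labelled Osmads6. That library was the lowest of the 4 for 29.2% of the 20675 genes that reached 1 FPKM on average over the genotypes, called tested genes below. Of the 4 genes, 3 had their highest mean in the library labelled Osmads32, which was the highest for 18.4% of those genes, and OsMADS3 peaked in rep1, the highest library for 23.8%. That filter was passed by 3 of the 4 genes; OsMADS21 averaged 0.650 FPKM and fell short of it. OsMADS58 and OsMADS13 passed through the libraries in which they are high, so the number that passed is no support for a difference.

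The makeup of the group differed between libraries. C-class genes together gave 1.47 FPKM in the library labelled Osmads6, 13.4 FPKM in that labelled Osmads32, 16.2 FPKM in that labelled rep1 and 5.17 FPKM in that labelled wild type. D-class genes together gave 0.0976, 20.7, 11.1 and 0.646 FPKM in the libraries labelled Osmads6, Osmads32, rep1 and wild type. The D-class sum thus exceeded the C-class sum in the library labelled Osmads32 and not in the other 3. OsMADS13 made up 54.3% of the summed level of the 4 genes in Osmads32 and 39.7% in rep1, against 9.58% in wild type. OsMADS3 made up 77.5% in Osmads6, 21.4% in Osmads32 and 54.1% in rep1, against 83.0% in wild type.

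Within the C class, OsMADS3 and OsMADS58 were nearly level in the library labelled Osmads32, with a ratio of their FPKM of 1.30 in run 1 and 1.11 in run 2. That ratio was 4.0 and 6.45 in the Osmads6 runs and 8.33 and 13.3 in the rep1 runs, against 9.85 and 20.5 in the wild type runs. The Osmads32 runs lay below all the others. Within the D class, OsMADS13 exceeded OsMADS21 by 8.54-fold and 8.12-fold in the Osmads32 runs and by 23.0-fold in rep1 run 2, against 3.54-fold and 11.7-fold in the wild type runs. Members of each pair are close paralogs that can share reads, and how such reads were assigned is not stated, so the split within a pair is uncertain to that extent.

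Differences between libraries were measured as log2((FPKM + 1)/(FPKM + 1)) of the means of 2 runs, and "past 2-fold" means at least 1 on this scale in either direction. The added 1 understates the differences of genes below about 1 FPKM. Folds are ratios of mean FPKM without it, each with an exact 95% Clopper-Pearson interval on the reads of both runs that covers counting error only. In bulk tissue, fewer cells of a type and less RNA per cell cannot be told apart.

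In the library labelled Osmads6 against that labelled wild type, 1 of the 4 genes, OsMADS3, was past 2-fold lower and 0 were higher, where 7.47% of all tested genes were lower and 7.7% higher. OsMADS3 averaged 1.22 FPKM in Osmads6 and 4.82 FPKM in wild type, which is 3.96-fold lower (interval 3.28 to 4.82; log2 difference -1.39). OsMADS13 had 3 reads in Osmads6 and 37 in wild type, a 9.06-fold lower ratio with an interval from 2.97 to 47.5. On the log2 scale that difference was only -0.55, because both levels lie below the added 1; with 0.1 added it was -2.02 and past 2-fold. For OsMADS58 and OsMADS21 the intervals of the ratio included no difference: Osmads6 over wild type was 0.739 (0.324 to 1.51) for OsMADS58 and 0.404 (0.0962 to 1.31) for OsMADS21.

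In the library labelled Osmads32 against that labelled wild type, 3 of the 4 genes were past 2-fold higher and 0 lower, where 1.81% of all tested genes were higher and 3.34% lower. OsMADS13 was 33.2-fold higher (24.2 to 48.0), OsMADS21 24.9-fold higher (14.0 to 46.5) and OsMADS58 17.6-fold higher (11.3 to 28.1). Their log2 differences of 3.65, 1.57 and 2.39 were each larger than those of at least 99.5% of tested genes. OsMADS3 stood apart from the other 3: it averaged 7.30 FPKM in Osmads32 and 4.82 FPKM in wild type, a 1.51-fold difference (1.38 to 1.69) that was within 2-fold, although the runs did not overlap.

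In the library labelled rep1 against that labelled wild type, 2 of the 4 genes were past 2-fold higher and 0 lower, where 5.13% of all tested genes were higher and 8.78% lower. OsMADS13 averaged 10.8 FPKM in rep1 and 0.557 FPKM in wild type, 19.5-fold higher (14.1 to 28.3). OsMADS3 was 3.06-fold higher (2.81 to 3.38). OsMADS58 had 68 reads in rep1 and 22 in wild type, a ratio of 4.15 (2.52 to 7.01), and its log2 difference was 0.85 with 1 added and 1.78 with 0.1 added. OsMADS21 had a ratio of 2.79 (1.32 to 5.66), but its rep1 runs lay on either side of the wild type runs. The median log2 difference of all tested genes was -0.15 in this comparison, and after scaling each run by its median ratio 1313 genes were higher and 1445 lower, in place of 1060 higher and 1815 lower.

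The comparisons with wild type share that library, so the 3 sets of ratios are not independent of each other. Between mutants, which avoids the library labelled wild type, all 4 genes were past 2-fold lower in Osmads6 than in Osmads32, where 5.98% of tested genes were lower and 7.61% higher. OsMADS13 was 301-fold lower on 3 reads in Osmads6 and 1050 in Osmads32, with an interval from 108 to 1531. OsMADS21 was 61.7-fold lower (23.3 to 223), OsMADS58 23.8-fold lower (13.6 to 47.3) and OsMADS3 6.0-fold lower (5.02 to 7.33). The runs did not overlap for any of the 4 genes; of all tested genes, 5.96% were past 2-fold lower with runs that did not overlap.

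In rep1 against Osmads6, OsMADS13 and OsMADS3 were past 2-fold higher and none of the 4 was lower, where 10.7% of tested genes were higher and 16.6% lower. OsMADS13 was 176-fold higher (62.8 to 897) and OsMADS3 12.1-fold higher (10.2 to 14.7). OsMADS58 stood at a ratio of 5.61 (3.08 to 11.7) with a log2 difference of 0.95, just inside 2-fold, and of 2.11 with 0.1 added. That difference was 1.025 after median-ratio scaling and 1.016 with the first runs alone, both past 2-fold, and 0.879 with the second runs alone. OsMADS21, at a ratio of 6.92 (2.29 to 26.0), had overlapping runs.

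The comparison of rep1 with Osmads32 uses neither the library labelled Osmads6 nor that labelled wild type. In it 2 of the 4 genes were past 2-fold lower and 0 higher, where 9.62% of tested genes were lower and 6.47% higher. OsMADS21 was 8.91-fold lower in rep1 (6.11 to 14.3), with both of its unequal rep1 runs below both Osmads32 runs, and OsMADS58 4.23-fold lower (3.23 to 5.55). OsMADS13 averaged 10.8 FPKM in rep1 and 18.5 FPKM in Osmads32, within 2-fold with runs apart. OsMADS3 went the other way, at 14.8 FPKM in rep1 and 7.30 FPKM in Osmads32, a ratio of 2.02 (1.86 to 2.20) whose log2 difference of 0.93 with the added 1 was just inside 2-fold. After median-ratio scaling that difference was 1.04 and past 2-fold.

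**Figure D2:**
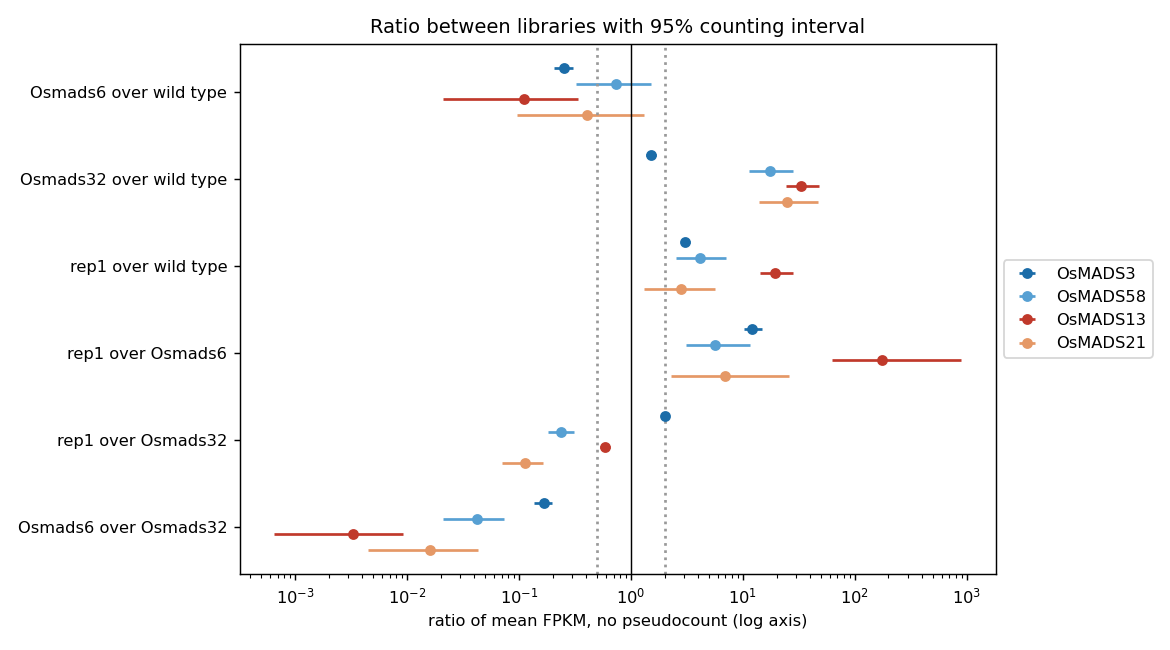
Ratio of mean FPKM between libraries (log axis, no pseudocount) for each gene in the 6 comparisons, with exact 95% counting intervals; the solid line marks no difference and dotted lines mark 2-fold. In Osmads6 over Osmads32 all 4 genes lie left of the dotted line, and in rep1 over Osmads32 OsMADS3 lies to the right while the other 3 lie to the left of no difference.

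**Figure D3:**
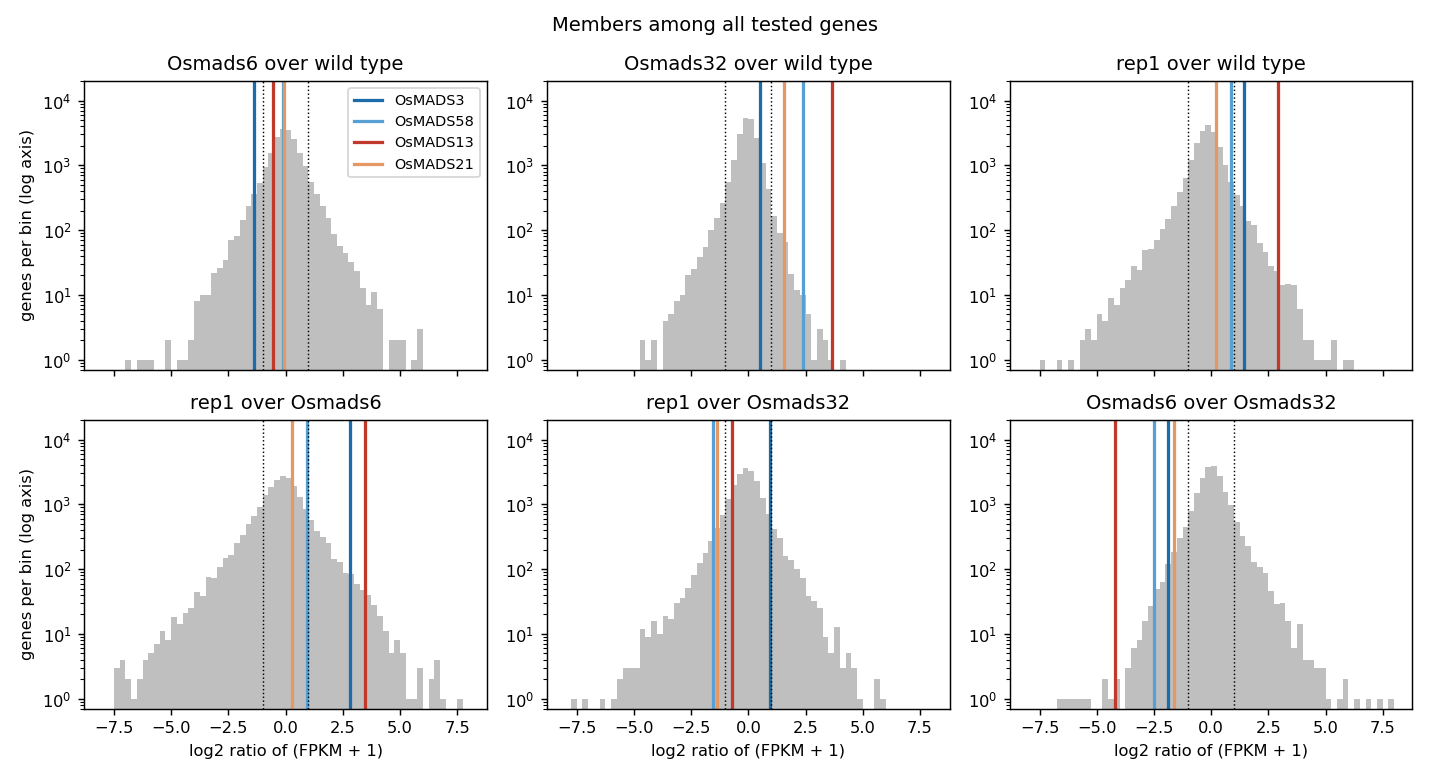
Distribution of the log2 ratio of (FPKM + 1) over the 20675 tested genes in each comparison (grey, log axis of gene counts), with coloured lines for the 4 genes and dotted lines at 2-fold. In Osmads32 over wild type OsMADS13 and OsMADS58 lie in the far right tail, at 3.65 and 2.39, whereas in Osmads6 over wild type OsMADS58 and OsMADS21 lie near 0.

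Genes of the same floral pathway were followed as lists of B-class, E-class and AGL6-like, Bsister, carpel and meristem, and stamen and anther genes. Of 40 listed genes, 34 had a symbol and locus pair that passed a check against RefSeq, and 28 of those were tested. In Osmads6 against wild type 5 of 28 were higher and 5 lower, beside 7.7% and 7.47% of all tested genes. The median log2 difference was -0.19, against -0.01 over all tested genes. In Osmads32 against wild type 3 were higher and 1 lower, beside 1.81% and 3.34% (0.04, against -0.03). In rep1 against wild type 8 were higher and 7 lower, beside 5.13% and 8.78% (0.22, against -0.15). In Osmads6 against Osmads32 7 were higher and 12 lower, beside 7.61% and 5.98% (-0.40, against 0.03). In rep1 against Osmads6 12 were higher and 6 lower, beside 10.7% and 16.6% (0.35, against -0.14). In rep1 against Osmads32 3 were higher and 3 lower, beside 6.47% and 9.62% (0.25, against -0.10). OsMADS6, itself a list gene, was past 2-fold in every comparison, lower in Osmads6 against Osmads32 and higher in the others. The library labelled Osmads6 was the lowest of the 4 for 12 of the 28 list genes and the highest for 7. It was the lowest for 29.2% of all tested genes. The library labelled rep1 was the lowest for 8 list genes and the highest for 12, and was the highest for 23.8% of all tested genes. Shares of all tested genes highest in Osmads6 or lowest in rep1 are not given, so the 7 and the 8 have no background beside them.

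The B-class genes, which specify lodicules and stamens, had the same order of means as OsMADS3 in all 3 members. OsMADS16 (LOC_Os06g49840) stood at 32.5 and 31.0 FPKM in the runs labelled Osmads6, 89.4 and 87.5 FPKM in those labelled Osmads32 and 110 and 94.9 FPKM in those labelled rep1, against 63.2 and 51.2 FPKM in those labelled wild type. All 3 B-class genes were past 2-fold lower in Osmads6 than in Osmads32 and past 2-fold higher in rep1 than in Osmads6. Against wild type, OsMADS2 (LOC_Os01g66030) and OsMADS4 (LOC_Os05g34940) were 2.66-fold and 3.11-fold higher in rep1, and no B-class gene was past 2-fold in Osmads6 or Osmads32.

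Among the E-class partners, OsMADS7 (LOC_Os08g41950) and OsMADS8 (LOC_Os09g32948), which act in the inner floral organs, differed from OsMADS1 and OsMADS5. OsMADS7 stood at 13.7 FPKM in Osmads6, 59.5 FPKM in Osmads32 and 57.6 FPKM in rep1, against 18.7 FPKM in wild type. OsMADS8 stood at 12.9 FPKM in Osmads6, 48.2 FPKM in Osmads32 and 69.4 FPKM in rep1, against 28.5 FPKM in wild type. OsMADS5 (LOC_Os06g06750) was 14.4-fold lower in rep1 than in wild type, and OsMADS1 (LOC_Os03g11614), a gene of lemma and palea identity, was 2.17-fold lower there. The AGL6-like gene OsMADS17 (LOC_Os04g49150) was within 2-fold in all 6 comparisons.

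The carpel gene DROOPING LEAF (DL, LOC_Os03g11600), a YABBY gene also active in the leaf midrib and the lemma, was high together with the carpel and ovule members in Osmads32 but low in rep1. It was 2.92-fold higher in Osmads32 than in wild type, at 55.6 against 19.1 FPKM. In rep1 it stood at 0.617 and 0.381 FPKM, 38.2-fold below wild type, in the library in which OsMADS13 was 19.5-fold above it. OsMADS29 (LOC_Os02g07430), a Bsister gene of the ovule and seed, was below 1 FPKM in every library, at 0 and 0.0384 FPKM in Osmads6, 0.717 and 0.402 FPKM in Osmads32 and 0 and 0.210 FPKM in rep1, against 0.0724 and 0.0969 FPKM in wild type. Its highest library was Osmads32, as for OsMADS13, OsMADS21 and OsMADS58.

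Meristem KNOX genes, which keep cells undifferentiated, included OSH43 (LOC_Os03g56110), at 9.61 FPKM in Osmads6, 36.5 FPKM in Osmads32 and 73.1 FPKM in rep1, against 21.1 FPKM in wild type. OSH71 (LOC_Os05g03884) was 5.72-fold higher in rep1 than in wild type and within 2-fold of it in the other mutants. STAMENLESS1 (SL1, LOC_Os01g03840), a zinc finger gene upstream of B-class expression, was 4.55-fold higher in Osmads6, 1.49-fold higher in Osmads32 and 19.2-fold lower in rep1 than in wild type.

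Genes of the anther were divided in the library labelled Osmads6. The tapetum gene RTS (LOC_Os01g70440) is listed at 0 in both Osmads6 runs and stood at 83.9 and 98.3 FPKM in the Osmads32 runs and 188 and 179 FPKM in the rep1 runs, against 136 and 96.5 FPKM in the wild type runs. OsC6 (LOC_Os11g37280), which encodes an anther lipid transfer protein, was 158-fold lower in Osmads6 than in wild type. RAFTIN1 (LOC_Os08g38810), another anther and tapetum gene, was 11.4-fold lower. MSP1 (LOC_Os01g68870), a receptor kinase that limits sporogenous cells, was 4.94-fold higher there, while GAMYB (LOC_Os01g59660) and CYP703A3 (LOC_Os08g03682) were within 2-fold; GAMYB was 2.26-fold higher in Osmads6 than in Osmads32, and CYP703A3 was 2.29-fold lower in rep1 than in wild type.

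**Figure D4:**
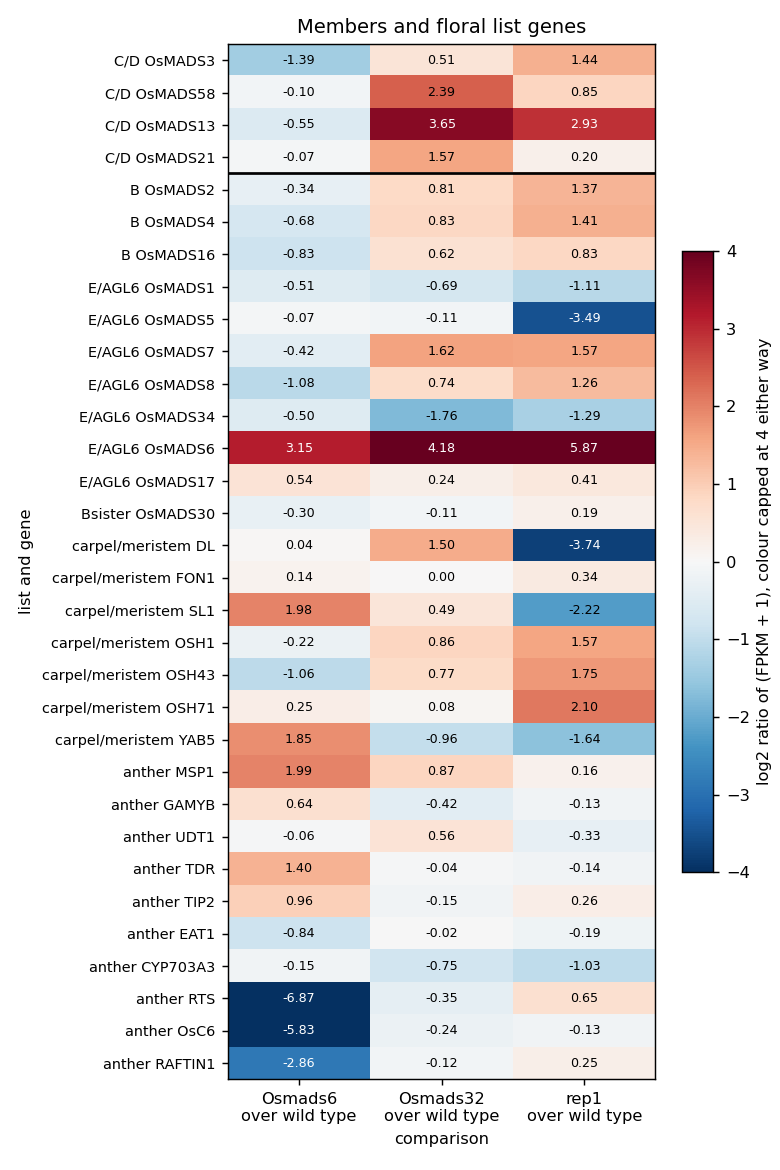
Log2 ratio of (FPKM + 1) of each mutant library over the wild type library for the 4 C- and D-class genes (above the line) and the 28 tested list genes. OsMADS13 reads 3.65 in Osmads32 and 2.93 in rep1, the B-class genes lie between 0.62 and 1.41 in those libraries, and RTS and OsC6 read -6.87 and -5.83 in Osmads6.

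Markers of other floral organs differed between the same libraries. Summed lodicule and stamen markers (3 of 3 above 1 FPKM in all libraries) ran from 48.1 to 52.7 FPKM in Osmads6, 131 to 137 FPKM in Osmads32 and 158 to 183 FPKM in rep1, against 70.0 to 94.5 FPKM in wild type. The 10 checked anther and tapetum markers summed to 37.0 to 38.9 FPKM in Osmads6, with RTS at 0 and 6 of 10 at 1 FPKM or more. They summed to 190 to 218 FPKM in Osmads32 and 296 to 303 FPKM in rep1, against 239 to 246 FPKM in wild type, with 8 of 10 at 1 FPKM or more in each of those libraries. These sums were carried by RTS, OsC6 and RAFTIN1, a split made after the values were seen. The other 7 anther and tapetum markers had another order, at 34.2 to 37.5 FPKM in Osmads6, 22.3 to 24.5 FPKM in Osmads32 and 15.1 to 15.9 FPKM in rep1, against 20.8 to 22.6 FPKM in wild type. Among these 7, MSP1 was 4.94-fold, TDR 4.14-fold and TIP2 3.31-fold higher in Osmads6 than in wild type. EAT1 was 2.65-fold lower there, and UDT1, CYP703A3 and PTC1 had ratios of 0.954, 0.893 and 0.936. With 1 added, the log2 differences of TIP2 and EAT1 were 0.96 and -0.84, inside 2-fold. TDR, TIP2, EAT1 and PTC1 were low, averaging 1.88, 1.12, 1.94 and 0.157 FPKM over the genotypes. The 4 meristem markers summed to 11.8 to 13.7 FPKM in Osmads6, 36.0 to 45.6 FPKM in Osmads32 and 89.0 to 90.9 FPKM in rep1, against 21.5 to 26.3 FPKM in wild type. Hull markers summed to 645 to 663 FPKM in Osmads6, 549 to 592 FPKM in Osmads32 and 319 to 404 FPKM in rep1, against 633 to 1019 FPKM in wild type. OsMADS3 had the order of the lodicule and stamen and of the meristem sums. The lodicule and stamen markers are the 3 B-class genes described above. OSH43 made up most of the meristem sum in each library, at 73.1 of 89.9 FPKM in rep1. Of the meristem markers only OSH71 had another order, with its lowest level in wild type. OsMADS1 made up most of the hull sum in each library, at 635 of 826 FPKM in wild type. The part of organ makeup in the levels of the 4 genes was not tested.

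**Figure D5:**
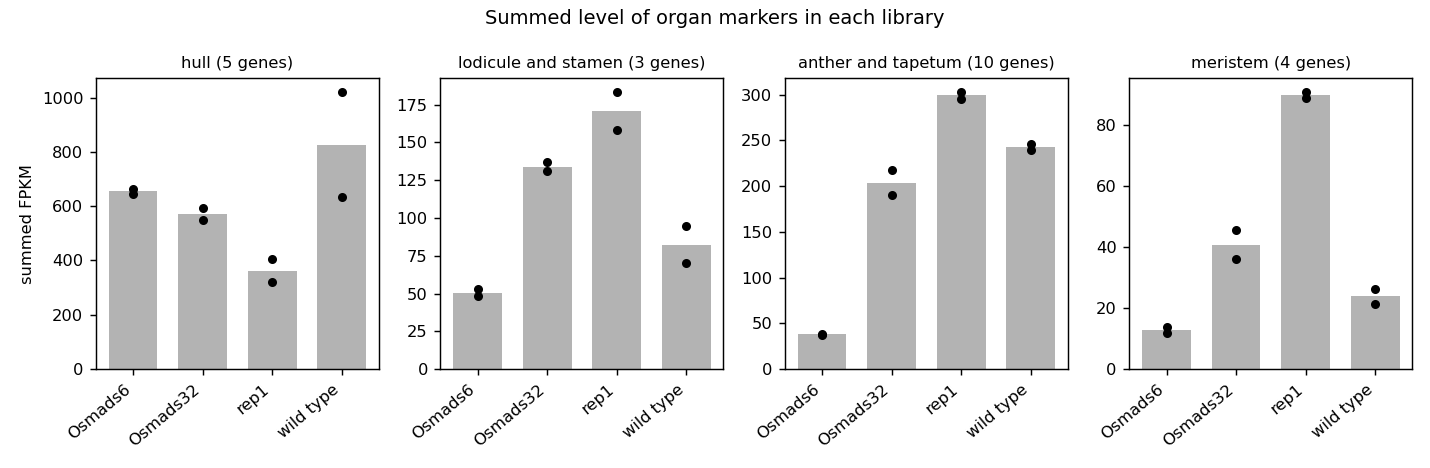
Summed FPKM of hull, lodicule and stamen, anther and tapetum, and meristem markers in each labelled library; bars are means of 2 runs and points are the runs, on linear axes from 0. Anther and tapetum markers sum to 37.0 and 38.9 FPKM in Osmads6 and to at least 190 FPKM in each of the other libraries; without RTS, OsC6 and RAFTIN1, which the bars include, the sum is highest in Osmads6, at 34.2 and 37.5 FPKM.

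Genes with the most similar pattern were sought by Pearson's r of log2(FPKM + 1) over the 8 runs, which are runs of 4 samples that share their library within a genotype, so r is a description only. Among list genes, OsMADS3 was closest to OSH43 (r = 0.98), OsMADS8 (0.97) and OsMADS16 (0.95). OsMADS13 was closest to OsMADS7 (0.98), then OsMADS16 (0.89) and OsMADS4 (0.87). OsMADS58 had OsMADS7 (0.83), OsMADS16 (0.70) and OsMADS8 (0.63) as its nearest list genes, and OsMADS21 had UDT1 (LOC_Os07g36460; 0.72), an anther transcription factor gene, OsMADS7 (0.67) and OsMADS16 (0.50). Over all tested genes the nearest were LOC_Os06g47340 to OsMADS3, LOC_Os01g65480 to OsMADS58, LOC_Os06g33180 to OsMADS13 and LOC_Os09g37420 to OsMADS21, with r from 0.978 to 0.998. However, r does not measure the size of a difference. From their lowest library to their highest, LOC_Os06g47340 ran from 115 to 536 FPKM and LOC_Os01g65480 from 39.5 to 67.6 FPKM. LOC_Os06g33180 ran from 27.2 to 36.5 FPKM and LOC_Os09g37420 from 7.04 to 20.5 FPKM. An r of at least 0.95 was reached with OsMADS3 by 344 genes, or 1.66% of those compared. It was reached with OsMADS13 by 36 (0.174%), with OsMADS58 by 20 (0.0967%) and with OsMADS21 by 18 (0.0871%).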

How the data were processed

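The authors deposited 1 table of FPKM values for 55986 genes in 8 columns; FPKM is taken from the table's name. Per the submitters' processing notes the build was IRGSP 1.0; aligner, counter, annotation release and handling of shared reads were not given in the sources used here. Columns were matched to genotypes by name.

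Whole reads were recovered from the deposited FPKM, since a gene's values are whole multiples of what 1 read is worth. Within a tolerance of 0.02 reads this held for 44697 of 44713 genes above 0 (99.96%). A factor shared by all runs of a gene would go unseen. They gave depth, intervals and the floor of 3 reads.

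Ratios used a pseudocount of 1 and a filter that kept the 20675 genes averaging at least 1 FPKM; the filter was not applied to the 4 genes themselves. Since n is 1 per genotype, nothing was tested between genotypes. Read recovery and 2-fold calls were tested on simulated data. Python 3.11.15, numpy 2.4.6, pandas 2.3.3 and scipy 1.17.1 were used.

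The table gives no gene names. Known rice nomenclature supplied the symbol of each locus ID, and each pairing was checked against RefSeq (ASM3414082v1) for the same chromosome and a position in the same order as 90% or more of the remaining pairs; 40 of 47 passed. OsMADS32 and REP1 did not and are named as targeted genes only; OsMADS31, WUS, APO1, CYP704B2 and WDA1 did not pass and were left out. The 4 genes and all lists were chosen with earlier results of these data known. List genes were named if past 2-fold in a comparison with a mean of at least 5 FPKM. OsMADS17, OsMADS29, OsMADS34, UDT1, TDR, TIP2, EAT1 and PTC1 were named beside them. For likeness, the 3 closest list genes and, of the closest locus IDs, 1 per gene are given. No sequence is shown. Alternatives were a pseudocount of 0.1, no filter, median-ratio scaling and either run alone.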

Additional observations from a re-analysis of the deposited data

How the results depend on the processing

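None of the 24 log2 differences of the 4 genes that was past 2-fold changed direction under median-ratio scaling or either run alone. The pseudocount of 0.1 and the lack of a filter could not change a direction. A pseudocount keeps the sign of a difference, and the filter was not applied to the 4 genes. Of 120 recomputed values, 24 were those without the filter, which equal the main values by construction. In all, 9 crossed 2-fold, 5 of them with the pseudocount of 0.1. With that pseudocount, 2 of the 4 genes were lower in Osmads6 than in wild type, 4 were higher in rep1 than in Osmads6 and 1 was higher in rep1 than in Osmads32. That last count was also 1 after median-ratio scaling and with the second runs alone, through OsMADS3. The count higher in rep1 than in Osmads6 was 3 after median-ratio scaling and with the first runs alone, through OsMADS58. List genes numbered 5 higher and 2 lower in Osmads32 against wild type and 5 higher and 5 lower in rep1 against Osmads32 with the pseudocount of 0.1. With the second runs alone, 3 list genes were lower in Osmads32 and 3 in Osmads6 than in wild type, and with the first runs alone 4 were lower in rep1 than in wild type. Over all genes, Osmads32 against wild type gave 687 higher and 1088 lower with the pseudocount of 0.1, and 740 higher with the second runs alone. A smaller pseudocount calls more low genes by construction; the cause of the run differences was not tested. No paired analysis was possible because each genotype has 1 sample. Depth limits OsMADS58 and OsMADS21 in Osmads6 and wild type, where a library held 4 to 22 reads over both runs. It also limits OsMADS13 in Osmads6, with 3 reads over both runs, and OsMADS21 in rep1, where run 2 held all 26 reads.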

Other observations

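The chromosomal neighbours of the 4 genes were counted, as the 10 tested genes before and the 10 after each in locus number. For Osmads6 against wild type, 0 of 20 neighbours of OsMADS13 were past 2-fold higher and 3 lower, where 7.7% of all tested genes were higher and 7.47% lower. For Osmads6 against Osmads32 the counts around OsMADS13 were again 0 higher and 3 lower, beside 7.61% and 5.98% of tested genes. For Osmads32 against wild type, 0 of 20 neighbours of OsMADS13 were past 2-fold in either direction, with a median log2 difference of 0.01. For the same comparison 0 of 20 neighbours of OsMADS58 were higher and 1 was lower, and the same counts were found around OsMADS21, beside 1.81% of tested genes higher and 3.34% lower. For rep1 against wild type, 0 of 20 neighbours of OsMADS13 were higher and 2 lower, and 1 of 20 neighbours of OsMADS3 was higher and 3 lower, beside 5.13% of tested genes higher and 8.78% lower. The remaining pairs of gene and comparison had 0 to 4 neighbours higher and 0 to 6 lower. Around OsMADS3, 4 were higher and 0 lower for Osmads6 against Osmads32, beside 7.61% and 5.98% of tested genes. For rep1 against Osmads6, 0 were higher and 6 lower around it, beside 10.7% and 16.6% of tested genes. The choice to count neighbours was made after the values of the 4 genes were seen.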
